A study of Homo sapiens with 8 samples.

Results

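The transcripts described here are those of 16 solute carriers, membrane proteins that move a substrate across a lipid bilayer without hydrolysing ATP themselves. They were chosen by their measured level, as the genes whose symbol consists of SLC, a family number, the letter A and a member number, and whose probe set had a mean log2 intensity of at least 5.2 over 8 arrays. Of 14884 genes with a symbol in the annotation used here, 17 had such a symbol and 16 reached that mean. The rule thus used the mean level and no difference between groups, but it was set with earlier results of these data known. RefSeq lists 347 genes of this pattern, so 330 carriers, among them the well-known plasma membrane carriers for glucose, lactate and large neutral amino acids, are not analysed here. Of the 16, 9 carry a former MFSD name and 3 a former PQLC name in RefSeq: the set holds mostly carriers numbered into the SLC system late, many of them without an established substrate.

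CCRF-CEM and HPB-ALL, both established human lines of T cell acute lymphoblastic leukaemia, gave 4 arrays each. In each line 1 array held cells with the short hairpin RNA (shRNA) shTOX-1, 1 cells with shTOX-2, 1 cells with a scramble shRNA and 1 untransduced cells. Both hairpins target TOX, a nuclear HMG-box protein needed for T cell development. Transduced cells were selected with puromycin and kept for at least 2 weeks, whereas untransduced cells went through neither step, so transduction, selection and time in culture cannot be told apart in that comparison. There was 1 array per line and construct, and the labels do not state whether the cultures were grown separately. The p-values thus measure only how these arrays scatter, which may be technical in part. Where constructs share a term in a fit, as scramble and untransduced cells do among the controls, differences between them count as scatter too.

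Solute carriers sit in the plasma membrane and in the membranes of mitochondria, lysosomes, the Golgi and the endoplasmic reticulum. Proliferating leukaemic T cells depend on them for amino acids and for the exchange of metabolites between compartments. The SLC66 proteins belong to the PQ-loop family, whose best-known relative is cystinosin, the lysosomal cystine exporter. Most of the others here have the fold of the major facilitator superfamily, in which the carrier rocks between an outward and an inward open state.

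Across the 8930 genes tested, Pearson's r was 0.949 to 0.985 within a line and 0.876 to 0.908 across lines. The TOX log2 level was 10.65 and 9.86 with shTOX-1 and shTOX-2 in CCRF-CEM, against 11.03 in both control arrays. In HPB-ALL it was 10.16 and 8.75 with the hairpins, against 10.59 with scramble and 10.64 untransduced. Over both lines TOX differed by -0.96 ± 0.28 between shTOX and control arrays and did not pass over all genes (limma adjusted p = 0.292). Of 11 T cell markers 7 were measured, and their mean level was 8.89 to 9.24 in the CCRF-CEM arrays and 6.91 to 7.63 in the HPB-ALL arrays. CD2 lay at 4.04 to 4.60 in HPB-ALL, under the filter level of 5.18. The measured B cell markers averaged 4.97 to 5.34 per array, and the measured NK cell markers 4.63 to 4.79 in CCRF-CEM and 5.38 to 5.73 in HPB-ALL. The 4 measured myeloid markers averaged 4.05 to 4.38 per array in CCRF-CEM and 4.34 to 5.34 in HPB-ALL. Means over the 8 arrays were 3.65 for CD14, 4.26 for LYZ and 4.61 for CSF1R, all under the filter level. Only MPO had a mean above it. MPO reached 7.94 in the shTOX-2 and 7.03 in the scramble array of HPB-ALL, against 5.10 with shTOX-1 and 4.83 untransduced. The part of these markers in the carriers' values was not tested.

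Every member was measured by 1 probe set. Their mean levels over the 8 arrays ran from 5.35 to 10.68, but levels of different probe sets cannot be set against each other, because probes differ in brightness. In 15 of the 16, each of the 8 arrays lay at or above 5.2. The exception was SLC25A2, a mitochondrial ornithine carrier, whose arrays ran from 5.12 to 5.76. Its mean of 5.35 and that of SLC49A3, 5.996, were the lowest inside the threshold, followed by SLC67A2 at 7.19 and SLC66A2 at 7.23. The gene outside it was SLC60A1, with a mean of 5.16 and arrays from 5.03 to 5.25. The standard deviation over the 8 arrays was 0.0926 for SLC75A1, the steadiest member, 0.473 for SLC66A3, the most variable, and 0.202 at the median.

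**Figure D1:**
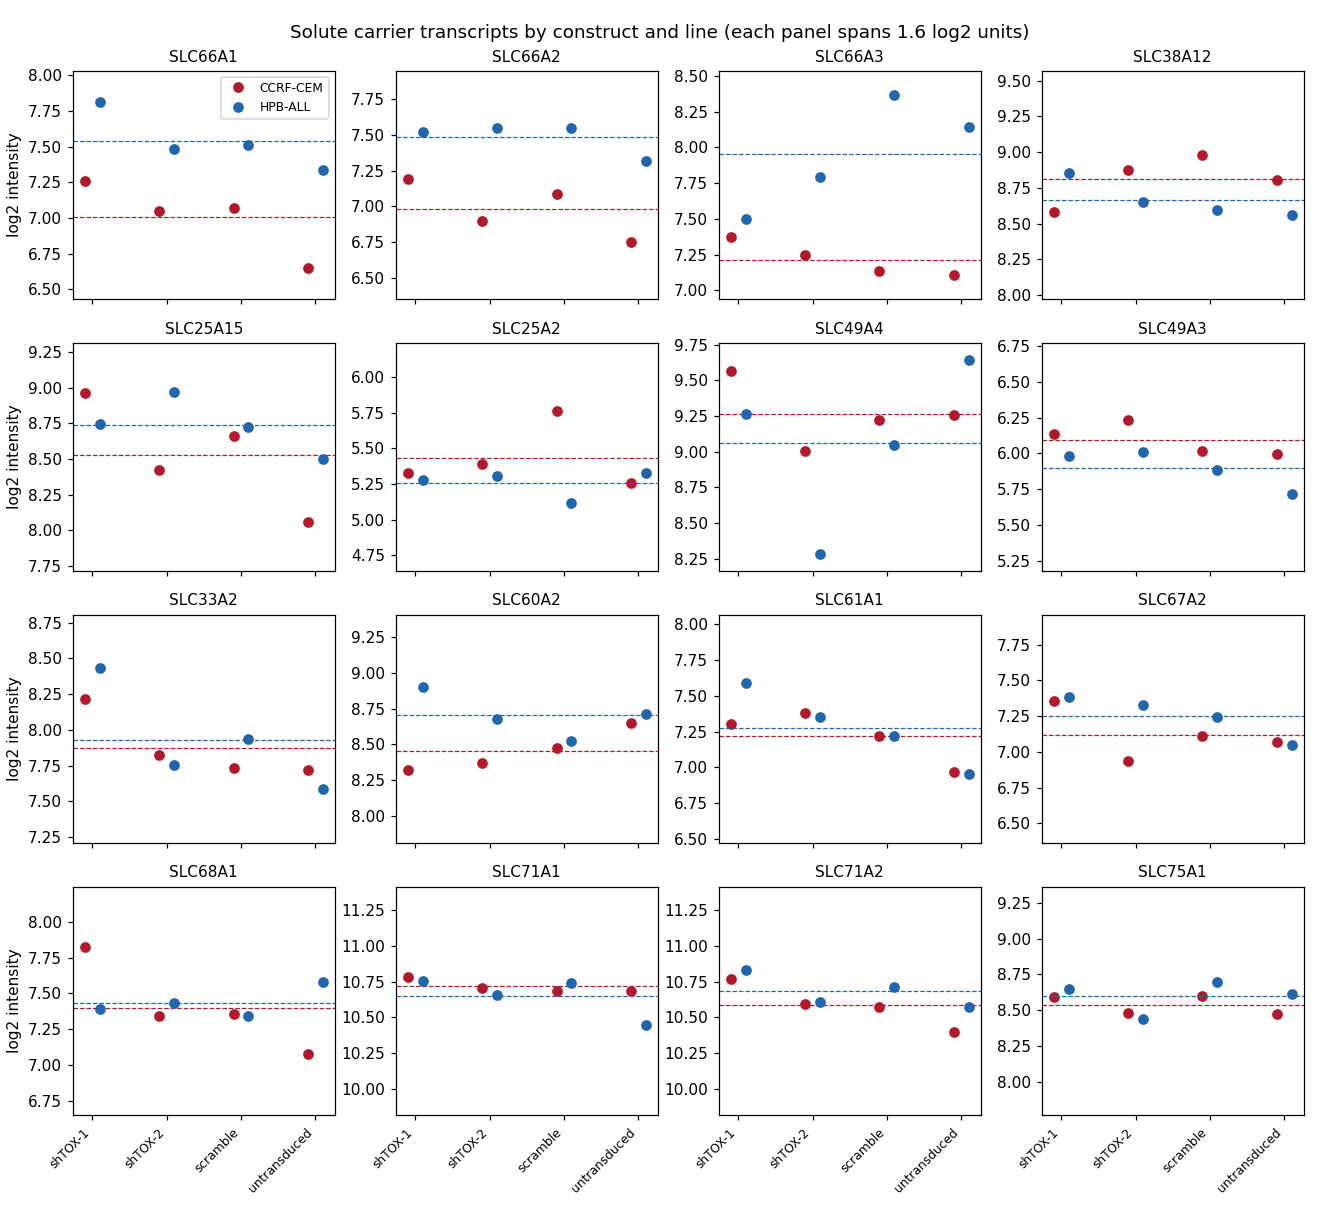
Log2 intensity (vertical axis, the same span in each panel) of the 16 solute carriers by construct (horizontal axis), with CCRF-CEM arrays in red, HPB-ALL arrays in blue and the mean of each line as a dashed line. Each point is 1 array; the red and blue points separate fully for SLC66A1, SLC66A2 and SLC66A3.

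The first comparison asked which carriers differ between the lines. The 3 PQ-loop carriers among the members, SLC66A1, SLC66A2 and SLC66A3, were lower in CCRF-CEM than in HPB-ALL, by 1.42-fold to 1.66-fold. No other member passed the test, and PQ-loop proteins under other symbols were not examined as a family. SLC66A1, also known as PQLC2, exports cationic amino acids from lysosomes. SLC66A2 and SLC66A3, formerly PQLC1 and PQLC3, are less well characterised relatives. The upstream sequences of the genes for SLC66A1 and SLC66A3 are shown. SLC66A2 differed in the same direction, but the promoter windows used held none for it. The sequences are the 250 bases before the RefSeq transcription start on build GRCh38.p14, plus strand, at chr1:19312076-19312325 and chr2:11155217-11155466. Capitals mark GGGCGG, the GC box letters, read on either strand.
SLC66A1: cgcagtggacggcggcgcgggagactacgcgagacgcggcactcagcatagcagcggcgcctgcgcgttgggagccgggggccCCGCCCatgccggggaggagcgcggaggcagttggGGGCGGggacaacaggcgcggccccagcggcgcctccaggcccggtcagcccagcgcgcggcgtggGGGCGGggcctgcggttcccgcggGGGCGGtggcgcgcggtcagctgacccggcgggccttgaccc
SLC66A3: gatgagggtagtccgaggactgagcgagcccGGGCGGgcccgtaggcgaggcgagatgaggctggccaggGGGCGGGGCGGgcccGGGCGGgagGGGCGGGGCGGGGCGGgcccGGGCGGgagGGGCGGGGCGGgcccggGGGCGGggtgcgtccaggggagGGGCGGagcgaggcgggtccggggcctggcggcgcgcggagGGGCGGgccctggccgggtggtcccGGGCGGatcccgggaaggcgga
The window of SLC66A1 held 4 such matches and that of SLC66A3 held 14, several of them overlapping, with GC contents of 80.0% and 84.4% against a median of 58.0% over 35116 RefSeq windows. The letters GGGCGG occurred in 42.6% of all windows and in those of 12 of the 13 members that had one. They thus do not set SLC66A1 and SLC66A3 apart from the other members. The windows as a whole were not chosen by expression, whereas the members were, so these shares are not like for like. The E-box letters CACGTG occurred in 6.34% of all windows and in the window of 1 member, SLC60A2. These matches are descriptions of letters and not of binding.

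SLC66A1 (probe set 16660212) had log2 levels of 7.26, 7.05, 7.07 and 6.65 in CCRF-CEM cells with shTOX-1, shTOX-2, scramble and no transduction, against 7.81, 7.49, 7.51 and 7.34 in HPB-ALL cells in the same order. All 4 CCRF-CEM arrays were below all 4 HPB-ALL arrays. The means were 7.01 ± 0.26 in CCRF-CEM and 7.54 ± 0.20 in HPB-ALL (SD, n = 4 each), a log2 difference of -0.53 ± 0.14 (SE; limma adjusted p = 0.0166).

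SLC66A2 (probe set 16856133) stood at 7.19, 6.90, 7.09 and 6.75 in the CCRF-CEM arrays and at 7.52, 7.55, 7.55 and 7.32 in the HPB-ALL arrays, in that order of constructs. The lines again did not overlap. The difference was -0.50 ± 0.13 (limma adjusted p = 0.0145), from means of 6.98 ± 0.20 in CCRF-CEM and 7.48 ± 0.11 in HPB-ALL (SD, n = 4 each).

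SLC66A3 (probe set 16877133) had levels of 7.38, 7.25, 7.14 and 7.10 in CCRF-CEM and of 7.50, 7.79, 8.37 and 8.15 in HPB-ALL. Its line difference was -0.74 ± 0.17 (limma adjusted p = 0.00999), with means of 7.22 ± 0.12 in CCRF-CEM and 7.95 ± 0.38 in HPB-ALL (SD, n = 4 each). The gap between the lines varied with the construct: it was -0.12 with shTOX-1 and -0.54 with shTOX-2, against -1.23 with scramble and -1.04 in untransduced cells. For SLC66A1 the gaps of the 4 constructs lay between -0.69 and -0.43, and for SLC66A2 between -0.65 and -0.33. Because these are bulk samples, fewer cells with a transcript and less of it per cell cannot be told apart.

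Among all 8930 tested genes, 14.9% were called lower and 12.4% higher in CCRF-CEM, 27.4% in either direction, so 3 of 16 members called is no more than the share over all genes. The median difference was -0.06 over the members and -0.01 over all genes, and the median size was 0.163 against 0.238. The arrays of the lines did not overlap for 3 members, where 27% of all genes did not overlap. All 3 called members are of the SLC66 family. They fall in the list of amino acid carriers, which has 4 members here and was made by family number, not by substrate. Without the CCRF-CEM shTOX-2 array only SLC66A3 was called: the adjusted p was 0.058 for SLC66A1 and 0.0549 for SLC66A2. Without the HPB-ALL shTOX-1 array that of SLC66A1 was 0.0585.

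The fourth amino acid carrier by family number, SLC38A12, formerly TMEM104, was at 8.81 ± 0.17 in CCRF-CEM and 8.66 ± 0.13 in HPB-ALL (SD, n = 4 each), with a difference of 0.15 ± 0.13 and an adjusted p of 0.434 in limma. The mitochondrial carriers had opposite signs. SLC25A15, which exchanges cytosolic ornithine for mitochondrial citrulline in the urea cycle, differed by -0.21 ± 0.17, and SLC25A2, its relative, by 0.18 ± 0.14. SLC49A4, a proton-driven lysosomal carrier also known as DIRC2, differed by 0.20 ± 0.24, with an interval from -0.34 to 0.75 that leaves room for a difference in either direction. Its relative SLC49A3, formerly MFSD7, was higher in CCRF-CEM with each of the 4 constructs, by 0.14 to 0.28, and did not pass (0.20 ± 0.10; limma adjusted p = 0.184).

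None of the remaining major facilitator members passed between the lines. SLC60A2, whose rat counterpart is a sodium-dependent glucose carrier, was lower in CCRF-CEM with 4 of 4 constructs, at -0.25 ± 0.13 (limma adjusted p = 0.178). SLC71A2, formerly MFSD14B, was likewise lower with each construct, by 0.01 to 0.17. Its close relative SLC71A1, formerly MFSD14A, was at 10.72 ± 0.05 in CCRF-CEM and 10.65 ± 0.14 in HPB-ALL (SD, n = 4 each). The molybdate carrier SLC61A1 differed by -0.06 ± 0.12, SLC75A1 by -0.06 ± 0.11, SLC33A2 by -0.05 ± 0.17, SLC67A2 by -0.13 ± 0.13 and SLC68A1 by -0.04 ± 0.15. Over the 13 members that did not pass, the differences ran from -0.25 to 0.20, and their 95% intervals from -0.59 to 0.75. Differences of that size were not excluded at 4 arrays a line.

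**Figure D2:**
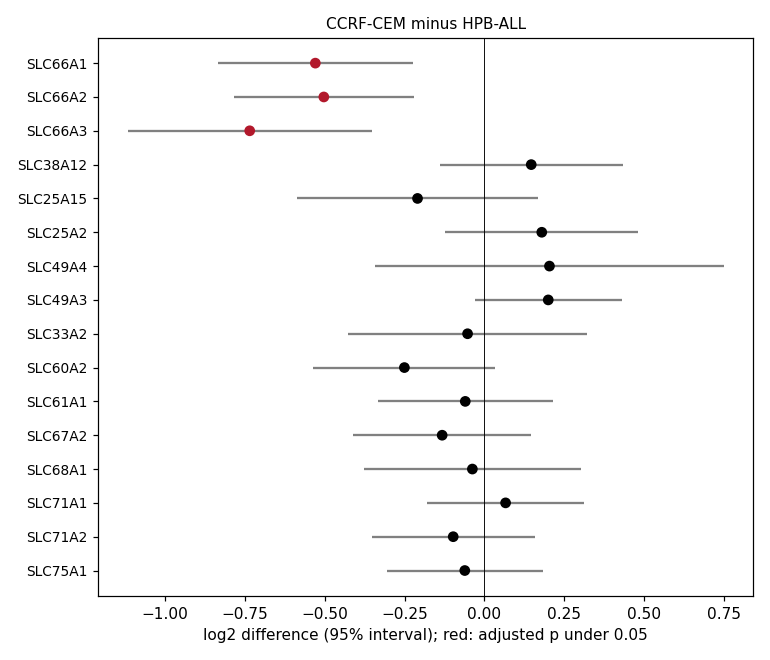
Log2 difference between the lines, CCRF-CEM minus HPB-ALL (horizontal axis), with its 95% interval for each of the 16 solute carriers; red points have an adjusted p under 0.05. SLC66A1, SLC66A2 and SLC66A3 lie at -0.53, -0.50 and -0.74, and the 13 others between -0.25 and 0.20.

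The second comparison set shTOX cells against scramble cells, which share transduction and selection. No member passed: 0 of 16 were called by limma, where 0% of all 8930 genes were called, and 0 members had an unadjusted p under 0.05. The smallest adjusted p was 0.933. The differences lay between -0.27 for SLC66A3 and 0.22 for SLC33A2, and their 95% intervals between -0.76 and 0.67. Without the HPB-ALL scramble array that of SLC66A3 was 0.056. The median was 0.06 over the members and 0.02 over all genes. The 4 shTOX arrays did not overlap the scramble arrays for 1 member, SLC61A1, and for 6.61% of all genes. Compared within each line, both hairpin arrays were on one side of scramble, and on the same one in CCRF-CEM and HPB-ALL, for 3 members (18.8%), against 21.5% of all genes. These were SLC49A3 and SLC61A1 on the higher side and SLC75A1, an MFS protein named TETRAN for its likeness to tetracycline exporters, on the lower side.

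Against the mean of scramble and untransduced controls, 0 of 16 members passed, as did 0% of all genes. This fit pools both controls, so differences between them count in its errors. SLC61A1 had the smallest p among the members. Its levels were 7.30 and 7.38 with shTOX-1 and shTOX-2 in CCRF-CEM, against 7.22 with scramble and 6.97 untransduced. In HPB-ALL they were 7.59 and 7.35 with the hairpins, against 7.22 and 6.95 in the same controls. The 4 shTOX arrays were thus above all 4 control arrays, as was the case in one direction or the other for 3.28% of all genes. The log2 difference was 0.31 ± 0.12 with an unadjusted p of 0.029 and an adjusted p of 0.321 in limma. Against scramble alone it was 0.18 ± 0.13. In both lines the untransduced array lay further from the shTOX arrays than scramble did.

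The next by p were SLC33A2, a relative of the endoplasmic reticulum acetyl-CoA carrier, at 0.32 ± 0.17, SLC66A1 at 0.26 ± 0.14 and SLC49A3 at 0.19 ± 0.10, with limma adjusted p between 0.399 and 0.419. On the lower side were SLC66A3 at -0.21 ± 0.17 and SLC49A4 at -0.26 ± 0.24. Leaving out single HPB-ALL arrays moved both. SLC49A4 was at -0.0052 without shTOX-2 and -0.082 without the untransduced array. SLC66A3 was at -0.073 without shTOX-1 and -0.087 without scramble. No single array set the SLC66A3 difference within HPB-ALL, which stayed between -0.76 and -0.47 with any 1 array left out. In CCRF-CEM that difference was 0.19, and the joint fit weighs CCRF-CEM more when an HPB-ALL array is missing. Nearest to 0 were SLC38A12 at 0.00 ± 0.13 and SLC60A2 at -0.02 ± 0.13. For 2 members (12.5%), SLC49A3 and SLC61A1, the shTOX arrays were above both controls within CCRF-CEM and also within HPB-ALL; a separation of this kind, in either direction, held for 11.4% of all genes.

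Within the lines, 0 of 16 members passed, and the shTOX and control arrays did not overlap for 7 members in CCRF-CEM (43% of all genes) and for 6 in HPB-ALL (40.8% of all genes). SLC66A3 had the smallest p among the members. In HPB-ALL it was at 7.50 and 7.79 with shTOX-1 and shTOX-2, against 8.37 with scramble and 8.15 untransduced, a difference of -0.61 ± 0.17. In CCRF-CEM the corresponding levels were 7.38 and 7.25, against 7.14 and 7.10, a difference of 0.19 ± 0.17. The hairpin arrays were thus below both controls in HPB-ALL and above both in CCRF-CEM. The test of the difference between the lines gave 0.80 ± 0.24, with an unadjusted p of 0.00932 and an adjusted p of 0.973 in limma. The adjusted p in HPB-ALL alone was 0.612. Neither passed over all genes, and 0% of genes were called in either test. The largest shTOX difference among the members in CCRF-CEM, 0.37 ± 0.20, was that of SLC68A1, formerly TMEM180. It came from the shTOX-1 array at 7.82, whereas the shTOX-2 array at 7.34 was level with scramble at 7.36, and the untransduced array was at 7.07.

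**Figure D3:**
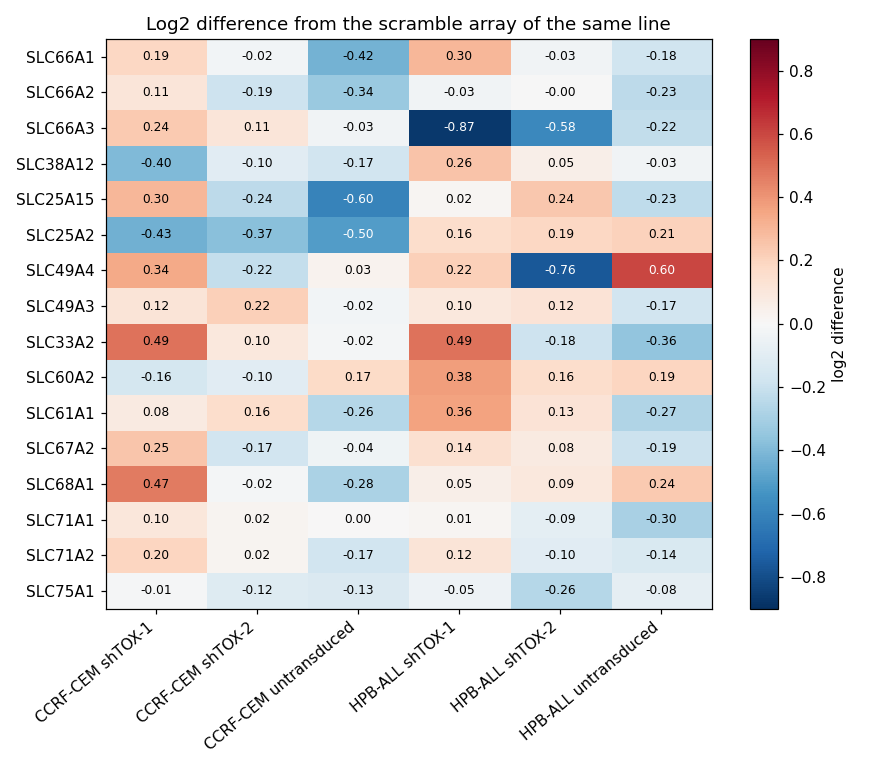
Log2 difference of each array from the scramble array of its own line, for the 16 solute carriers (rows) in shTOX-1, shTOX-2 and untransduced cells of CCRF-CEM and HPB-ALL (columns); red is higher and blue lower than scramble. SLC66A3 is at -0.87 and -0.58 in the hairpin arrays of HPB-ALL and SLC49A4 at -0.76 in its shTOX-2 array.

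Between the hairpins, the TOX level differed by -1.10 ± 0.20 for shTOX-2 against shTOX-1, which did not pass over all genes (limma adjusted p = 0.401). Of the members, SLC49A4 and SLC33A2 had an unadjusted p under 0.05 in that contrast, and 0 of 16 passed, as 0% of all genes did. For SLC49A4 the shTOX-2 arrays stood at 9.01 in CCRF-CEM and 8.28 in HPB-ALL, against 9.56 and 9.26 for shTOX-1, a difference of -0.77 ± 0.26 (limma adjusted p = 1.00). That difference was -0.42 without the HPB-ALL shTOX-2 array and -1.12 without the CCRF-CEM one. The shTOX-2 array of HPB-ALL was the lowest of the 8 for this gene, and the untransduced array of that line, at 9.65, the highest. SLC33A2 was at 7.83 and 7.76 with shTOX-2, against 8.22 and 8.43 with shTOX-1, a difference of -0.53 ± 0.17 (limma adjusted p = 1.00). With scramble it was at 7.73 in CCRF-CEM and 7.94 in HPB-ALL, so both hairpin arrays stood above scramble in CCRF-CEM, but only that of shTOX-1 did in HPB-ALL. The arrays of the hairpins did not overlap for 6 of 16 members, where 22.3% of all genes did not. All 6 were lower with shTOX-2. The difference was negative for 12 of the 16 members and positive for 4, where it was positive for 41.5% of all genes. The 6 were SLC33A2, SLC49A4, SLC67A2, SLC71A1, SLC71A2 and SLC75A1. The median over the members was -0.15, against -0.04 over all genes.

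The last comparison set the 6 transduced arrays against the 2 untransduced ones. Again 0 of 16 members passed, here beside 11.2% of all genes that did, 5.82% higher and 5.33% lower. The differences were positive for 13 of 16 members with a median of 0.16, against 54.2% of all genes positive and a median of 0.03. For 7 members (43.8%) the transduced arrays lay on one side of the untransduced array in both lines, all on the higher side; this held in either direction for 37.2% of all genes. The 7 were SLC25A15, SLC33A2, SLC49A3, SLC61A1, SLC66A1, SLC66A2 and SLC71A2.

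SLC61A1 came nearest to passing. Its 6 transduced arrays ran from 7.22 to 7.59, against 6.97 and 6.95 in untransduced CCRF-CEM and HPB-ALL. The groups did not overlap, as for 18.5% of all genes, and the difference was 0.38 ± 0.12 (1.31-fold; limma adjusted p = 0.075). It passed when dim genes were filtered more strictly (adjusted p = 0.0492) and after quantile normalization (0.0382). SLC25A15 had levels of 8.96, 8.42 and 8.66 in CCRF-CEM cells with shTOX-1, shTOX-2 and scramble, against 8.06 untransduced, and of 8.74, 8.97 and 8.73 in HPB-ALL cells, against 8.50 untransduced. The transduced arrays were higher within each line, and the difference was 0.47 ± 0.16 (1.38-fold; limma adjusted p = 0.0993). SLC66A1 differed by 0.37 ± 0.14 (limma adjusted p = 0.111), SLC33A2 by 0.33 ± 0.19 and SLC66A2 by 0.27 ± 0.12.

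On the lower side, SLC49A4 differed by -0.39 ± 0.28, SLC60A2 by -0.14 ± 0.14 and SLC66A3 by -0.06 ± 0.20, none of which passed. For SLC49A4 the value rested on HPB-ALL: without the untransduced array of that line it was 0.0095. That of SLC60A2 was -0.017 without the untransduced CCRF-CEM array. The difference between the lines was tested for every member and passed for 0 of 16, where 0.0672% of all genes passed, 0.0112% higher and 0.056% lower; SLC68A1 had the smallest p there, with 0.62 ± 0.30 (limma adjusted p = 0.999). Scramble cells alone differed from untransduced cells by 0.41 ± 0.20 for SLC25A15 and by 0.26 ± 0.15 for SLC61A1, with limma adjusted p of 0.324 and 0.399, and shTOX cells by 0.49 ± 0.17 and 0.44 ± 0.13, with 0.0976 and 0.0553. No member passed in either. Over all genes, 0.582% were called higher and 0.482% lower for scramble against untransduced, 1.06% in all, and 6.18% higher and 5.64% lower for shTOX against untransduced, 11.8% in all. The arrays did not overlap for 6 members between scramble and untransduced cells (33.7% of all genes) and for 3 between shTOX and untransduced cells (25.4% of all genes). These contrasts share the untransduced arrays.

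**Figure D4:**
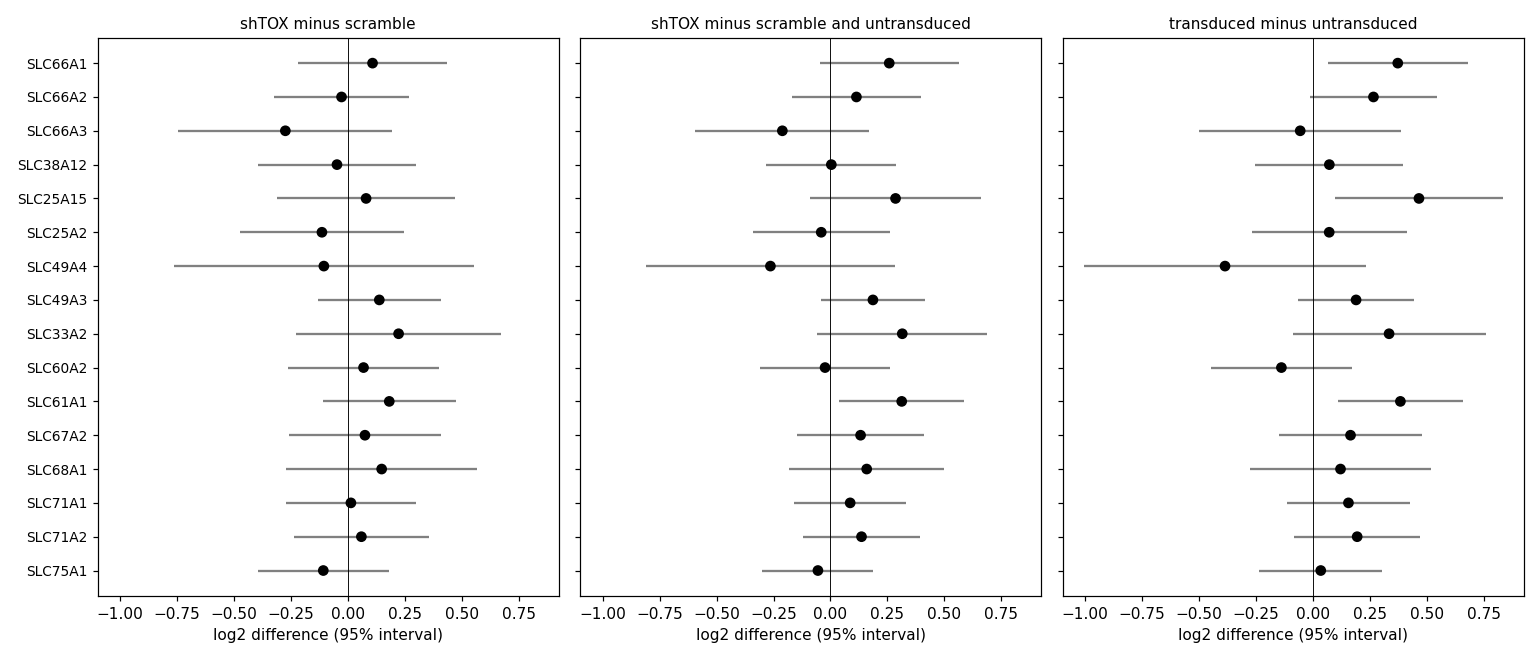
Log2 difference (horizontal axis) with its 95% interval for each of the 16 solute carriers, as shTOX minus scramble, shTOX minus both controls, and transduced minus untransduced. No point passed at an adjusted p of 0.05; in the third panel 13 of 16 points lie above 0.

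Other transport genes gave these values beside the members. Of 43 listed carriers of the SLC superfamily under other symbols, 16 were tested, and between the lines 3 were called higher and 4 lower in CCRF-CEM, where 12.4% of all genes were called higher and 14.9% lower. The lower ones were MFSD2A, a lysophospholipid carrier, at -1.40 ± 0.16, SPNS2, which exports sphingosine 1-phosphate, at -0.84 ± 0.14, FLVCR1, a choline and haem carrier, at -0.75 ± 0.12, and UNC93B1, the chaperone of endosomal Toll-like receptors, at -0.70 ± 0.16. The higher ones included SPNS1, a lysosomal lysophospholipid carrier, at 0.95 ± 0.17 and MFSD6 at 0.91 ± 0.20. SPNS1 was also the 1 carrier of this list called between transduced and untransduced cells, at 0.68 ± 0.13 (limma adjusted p = 0.0151); without the untransduced array of CCRF-CEM or of HPB-ALL its adjusted p was 0.119 or 0.144. SLC35D4, a nucleotide sugar carrier by family whose symbol falls outside the rule, was at 7.26 ± 0.11 in CCRF-CEM and 8.33 ± 0.05 in HPB-ALL (SD, n = 4 each; limma adjusted p = 4.59e-05). It is named after its values were seen. The other tested carriers with such symbols, SLC35F6 at -0.04 ± 0.10 and SLC9D1 at 0.19 ± 0.11, did not pass between the lines (limma adjusted p = 0.814 and 0.250).

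Of 25 chaperones, drivers and regulators of carriers, 9 were tested. Between the lines 1 was called higher and 1 lower in CCRF-CEM, where 12.4% of all genes were called higher and 14.9% lower. The kinase OXSR1, which phosphorylates cation-chloride cotransporters, was higher in CCRF-CEM at 0.48 ± 0.10. OSTM1, the partner of a lysosomal chloride exchanger, was lower at -0.53 ± 0.15. In the transduction comparison 0 were called. The call of OSTM1 was lost in 4 of the 8 fits that left out 1 array. Of 27 amino acid response genes of the transcription factor ATF4, 19 were tested. Of these, 11 were called lower and 1 higher in CCRF-CEM, where 14.9% of all genes were called lower and 12.4% higher. The asparagine synthetase ASNS was at -2.52 ± 0.28, VLDLR, a lipoprotein receptor, at -2.02 ± 0.32, and the stress protein SESN2 at -1.61 ± 0.30. The transcription factor ATF3 was at -1.13 ± 0.21 and PCK2, the mitochondrial phosphoenolpyruvate carboxykinase, at -1.07 ± 0.16. In untransduced cells of CCRF-CEM and HPB-ALL, ASNS was at 7.43 and 8.61, VLDLR at 8.60 and 9.18, and SESN2 at 9.11 and 9.60. For each of them the untransduced array was the highest of CCRF-CEM. The transduction difference between lines was positive for 0 of the 19 genes. Its median was -0.68, against -0.002 over all genes, and 0 of the 19 were called. The cystathionine lyase CTH was also called lower, but its CCRF-CEM mean of 4.62 lay under the filter level, against 6.81 in HPB-ALL, so no size of difference is given. Between transduced and untransduced cells 3 genes of this list were lower, where 5.33% of all genes were called lower: TRIB3 at -2.04 ± 0.18, ATF5 at -2.01 ± 0.24 and DDIT3 at -1.87 ± 0.14. For ATF5 the adjusted p was 0.0622 without the untransduced CCRF-CEM array. In shTOX against scramble, 0 genes of these 3 lists were called, and their part in the members' levels was not tested.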

How the data were processed

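Labelled RNA was prepared by an Affymetrix GeneChip WT protocol, per the labels' protocols. The deposited values for 53617 probe sets are on a log2 scale, as read from their range; the authors' background correction, summarization and normalization: not given in the sources used here. Array medians were 4.62 to 4.71, so shifts common to all genes would not show. A symbol was given for 16098 probe sets, and 37519 are unnamed here. The brightest probe set stood for each of 779 genes that had several. The dimmest 40% of genes by mean (under log2 5.18) were dropped, and limma 3.58.1 (R 4.3.3; lmFit and eBayes, no trend) was run on the remaining 8930 with Benjamini-Hochberg adjustment; called means an adjusted p under 0.05. After ± stand standard errors unless SD is written; intervals are 95%.

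All 8 arrays entered every fit. The terms were line plus shTOX for the lines and for shTOX against controls; line plus 3 treatments for contrasts with scramble or untransduced cells, the 3 constructs weighing equally among transduced cells; a mean per line and state, or per line and transduction, for values within and between lines; and line plus each hairpin for the hairpins. The script was tested on simulated data. Members and gene lists were chosen with earlier results of these data known. Genes named were, by rule, all members called, the members with the smallest p in each direction of each comparison, those near the level threshold and the brightest, TOX, markers, and up to 6 called genes by size from each other list; the remaining members are named for completeness. Alternatives were the filter, the normalization, the probe set rule, the variance model, a construct block and each array left out. Promoter windows are RefSeq's. The number of arrays limits the precision.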

Additional observations from a re-analysis of the deposited data

Results flagged for a closer look

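In groups of 4 or 6 arrays, 3 of 80 tests for a single distant array passed, and chance flags about 1 in 20. SLC68A1 stood at 7.82 in the CCRF-CEM shTOX-1 array, with the next of the 6 transduced arrays at 7.43. SLC66A2 stood at 7.32 in the untransduced HPB-ALL array, below the other arrays of that line, of which the nearest was at 7.52; leaving it out changed no call of that gene. SLC67A2, formerly MFSD9, stood at 6.94 in the CCRF-CEM shTOX-2 array, with the nearest of the 4 shTOX arrays at 7.33. The causes were not tested.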

How the results depend on the processing

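Between the lines 3 members were called under each of 7 other ways of processing all 8 arrays, and without both untransduced arrays, an alternative chosen after seeing the data; with 1 array left out the count ran from 1 to 3. In the other 10 comparisons it was 0 with any 1 array left out, where a fit could be made: the transduction difference between lines cannot be estimated without an untransduced array. The count was 1, SLC61A1, for transduced and for shTOX against untransduced cells under the stricter filter, which adjusts over fewer genes, and under quantile normalization, where the cause was not tested.

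With the construct as a replicate block, the lines had 3 calls (smallest adjusted p 0.00548) and the 6 other comparisons it allows had 0; contrasts within or between lines could not be estimated. Deviations of the same construct in both lines correlated at -0.08 for scramble, 0.24 for shTOX-1, 0.38 for shTOX-2 and 0.57 for untransduced cells. Because the constructs are not described as shared batches and 1 of 4 correlations was not above 0.1, they were not taken as pairs. Yet 6 of 8 arrays correlated best with their own construct. The construct is also the treatment, so a shared batch and an effect shared by both lines cannot be told apart here. Quantile normalization moved the median of all genes for the shTOX difference between lines to 0.081, against -0.024 as deposited.

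Signs turned only for differences that had not passed. Each line has 1 scramble and 1 untransduced array, and without it that control is measured in the other line only. With 1 array left out, these log2 differences turned. For shTOX against controls, SLC25A2 ran from -0.12 to 0.082. For shTOX against scramble, SLC66A3 ran from -0.61 to 0.056, SLC25A2 ran from -0.43 to 0.20 and SLC49A4 ran from -0.28 to 0.15. For transduced against untransduced, SLC49A4 ran from -0.78 to 0.0095 and SLC66A3 ran from -0.26 to 0.15. For shTOX against untransduced, SLC60A2 ran from -0.24 to 0.0062, SLC66A3 ran from -0.35 to 0.056 and SLC75A1 ran from -0.054 to 0.052. For scramble against untransduced, SLC49A4 ran from -0.71 to 0.080. For shTOX against controls in CCRF-CEM, SLC25A2 ran from -0.40 to 0.10. For shTOX against controls in HPB-ALL, SLC33A2 ran from -0.0060 to 0.67 and SLC68A1 ran from -0.17 to 0.072. For shTOX difference between lines, SLC25A2 ran from -0.47 to 0.032 and SLC67A2 ran from -0.36 to 0.059. For shTOX-2 against shTOX-1, SLC66A3 ran from -0.33 to 0.49, SLC38A12 ran from -0.23 to 0.33 and SLC25A2 ran from -0.042 to 0.13. Quantile normalization turned SLC75A1 in shTOX against untransduced to 0.022, SLC67A2 in the shTOX difference between lines to 0.0096 and SLC25A2 between the hairpins to -0.0070. SLC68A1 in HPB-ALL shTOX against controls was 0.072 without both untransduced arrays. The cause was not tested. SLC25A2 lies close to the filter level.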
